A study of Homo sapiens with 4 samples.

Results

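H3.3 intervals were examined at 10 genes of NF-κB feedback and inflammation, chosen by name: *NFKBIA*, *NFKB1*, *NFKB2*, *TNFAIP3*, *CXCL8*, *CXCL1*, *IL6*, *CCL2*, *IL1B* and *ICAM1*. They are 10 of the 20033 protein-coding genes annotated on the autosomes and sex chromosomes in GENCODE release 44. For each gene, all intervals that overlapped the gene body or lay within 20 kb of any annotated transcription start site (TSS) were taken, which gave 45 of the 88822 distinct intervals without UV and 42 of the 77183 after UV. An interval within 1 kb of any TSS of the gene was called a promoter interval, one elsewhere in the gene a body interval, and the rest flanking intervals.

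The replacement histone H3.3 was immunoprecipitated from wild-type human fetal lung fibroblasts, which the sample labels name MRC5 and the study MRC5_VA, its line immortalized with SV40. The cells were either not irradiated, or irradiated with UV-C at 10 J/m2 and harvested 3 h later. The study pooled the DNA of 3 replicates before sequencing, so each condition was represented by 1 H3.3 library, and UV and library cannot be told apart. No test between conditions was therefore possible, no p-value is given, and the intervals around values cover counting error only.

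NF-κB dimers are held in the cytoplasm by IκB proteins. When IκB kinase is activated, by cytokine receptors or by DNA damage, IκB is degraded, the dimers enter the nucleus and cytokine, chemokine and adhesion genes are transcribed, together with the genes of the pathway's own inhibitors, which then end the response. H3.3 is incorporated outside DNA replication and is typical of promoters, enhancers and regions where nucleosomes are replaced. UV-C is a known inducer of NF-κB and of inflammatory genes in several cell types.

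The peak lists gave no read totals. From the deposited fold enrichment and −log10 p, the number of fragments at each summit (the pileup) came out as a whole number in 100% of the rows of both lists, within 0.001 of the deposited −log10 p. The genome-wide background was 1.02 fragments without UV and 0.968 fragments after UV, and a summit's relative height is its pileup divided by this background. The median pileup was 14 and 16, and the range 5 to 280 and 5 to 379. Relative heights at promoters were generally larger after UV: over the 8974 protein-coding genes with a promoter interval in both lists, the median ratio of UV to no UV was 1.33, with 0.849 at the 5th and 2.14 at the 95th percentile. Ratios at the 10 genes are read against this shift. Fibroblast marker genes had a promoter interval for 9 of 12 without UV and 10 of 12 after UV, epithelial markers for 3 of 5 in both lists, endothelial markers for 0 of 4 in both, and blood markers for 2 and 1 of 5. Of all 20033 protein-coding genes, 9616 had one without UV and 10818 after UV. An H3.3 interval is not a measure of expression.

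Of the 10 genes, 6 had a promoter interval in both lists: *NFKBIA*, *NFKB1*, *NFKB2*, *IL6*, *CCL2* and *ICAM1*. *TNFAIP3* and *IL1B* had one after UV only, *CXCL8* and *CXCL1* had none in either list, and no gene had one without UV only. Over all protein-coding genes the corresponding shares were 44.8% in both lists, 9.2% after UV only, 42.8% in neither and 3.2% without UV only. The map of intervals shows the arrangement gene by gene.

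**Figure D1:**
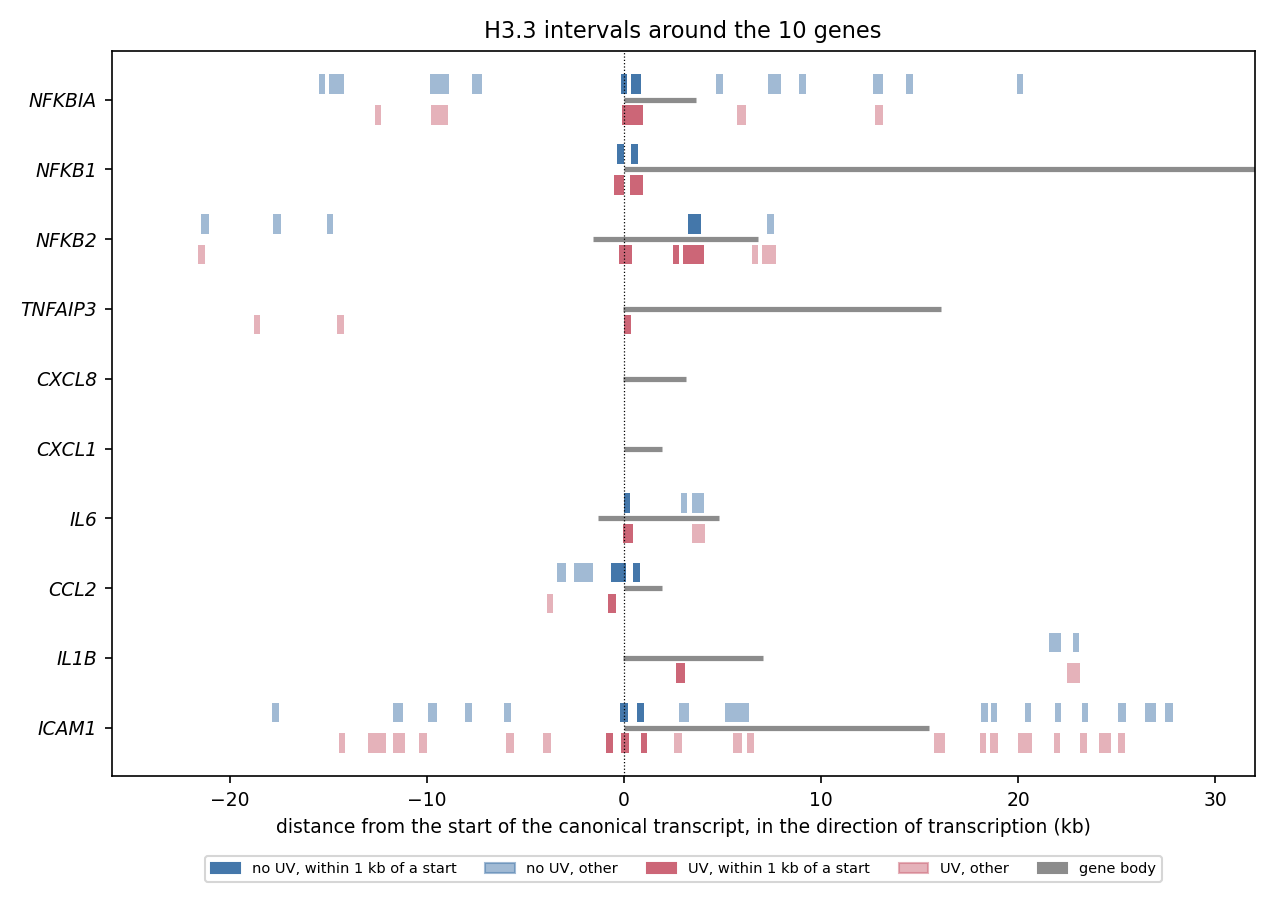
Intervals around each of the 10 genes by distance from the start of the canonical transcript, in kb along the direction of transcription, without UV (upper row, blue) and after UV (lower row, red), with promoter intervals in full colour and all others pale. CXCL8 and CXCL1 have no interval, TNFAIP3 has 3 after UV and 0 without, and NFKBIA has 12 without UV and 5 after.

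The promoters on which these comparisons turn are given here from RefSeq (build hg38), from 250 bases before to 20 bases after the start, on the strand of the gene. RefSeq promoters were found for 9 of the 10 genes, and the bases of all 9 were identical in hg38. Capitals mark matches, on either strand, to the κB consensus GGGRNNYYCC, to the AP-1 motif TGANTCA and to TATAAA. In these, R is A or G, Y is C or T, and N is any base. The first set are the inhibitors, of which *TNFAIP3* had its interval after UV only and *NFKBIA* had the highest promoter summit of the 10 genes after UV.
NFKBIA, chr14:35404730-35404999 (−): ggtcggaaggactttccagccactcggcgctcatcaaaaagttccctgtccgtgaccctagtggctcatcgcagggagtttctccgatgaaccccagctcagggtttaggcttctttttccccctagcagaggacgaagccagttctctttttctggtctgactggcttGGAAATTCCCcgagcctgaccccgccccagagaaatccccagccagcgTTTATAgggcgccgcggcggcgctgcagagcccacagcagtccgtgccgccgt
TNFAIP3, chr6:137867009-137867278 (+): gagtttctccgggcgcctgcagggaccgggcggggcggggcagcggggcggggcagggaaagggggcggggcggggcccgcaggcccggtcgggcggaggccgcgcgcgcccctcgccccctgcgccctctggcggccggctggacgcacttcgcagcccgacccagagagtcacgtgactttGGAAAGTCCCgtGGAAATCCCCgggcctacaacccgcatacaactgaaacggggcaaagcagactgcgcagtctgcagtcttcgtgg
*NFKB2*, which carried an interval over its start after UV only, is shown for that reason, chosen after its values were seen.
NFKB2, chr10:102395455-102395724 (+): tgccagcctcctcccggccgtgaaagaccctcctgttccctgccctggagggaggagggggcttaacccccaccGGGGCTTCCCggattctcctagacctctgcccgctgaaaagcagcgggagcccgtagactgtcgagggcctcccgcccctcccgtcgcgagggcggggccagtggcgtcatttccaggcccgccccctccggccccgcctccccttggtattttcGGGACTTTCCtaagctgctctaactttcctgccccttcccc
*IL6* and *ICAM1* had intervals over the start in both lists, and *IL1B* and *CXCL8* had none there in either.
IL6, chr7:22726950-22727219 (+): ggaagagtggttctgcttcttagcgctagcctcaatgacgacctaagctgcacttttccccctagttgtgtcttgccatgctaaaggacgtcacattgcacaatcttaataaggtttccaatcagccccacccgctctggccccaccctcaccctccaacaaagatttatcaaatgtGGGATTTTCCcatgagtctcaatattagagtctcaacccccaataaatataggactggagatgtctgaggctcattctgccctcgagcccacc
ICAM1, chr19:10270870-10271139 (+): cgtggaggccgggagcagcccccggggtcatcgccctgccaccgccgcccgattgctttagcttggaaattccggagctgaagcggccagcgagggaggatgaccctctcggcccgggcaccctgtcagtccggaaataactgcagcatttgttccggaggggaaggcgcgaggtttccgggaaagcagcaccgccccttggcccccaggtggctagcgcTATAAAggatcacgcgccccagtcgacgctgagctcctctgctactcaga
IL1B, chr2:112836760-112837029 (−): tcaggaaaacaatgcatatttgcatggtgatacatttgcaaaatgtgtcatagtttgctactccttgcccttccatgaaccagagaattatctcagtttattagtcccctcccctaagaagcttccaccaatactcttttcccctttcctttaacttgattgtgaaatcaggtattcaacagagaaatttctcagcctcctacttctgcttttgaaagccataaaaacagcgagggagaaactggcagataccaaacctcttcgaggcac
CXCL8, chr4:73740319-73740588 (+): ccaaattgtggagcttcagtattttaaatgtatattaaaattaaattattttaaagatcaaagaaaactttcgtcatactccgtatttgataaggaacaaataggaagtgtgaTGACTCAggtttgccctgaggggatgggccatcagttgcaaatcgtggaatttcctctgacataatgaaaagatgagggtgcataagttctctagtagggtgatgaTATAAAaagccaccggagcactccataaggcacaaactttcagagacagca
The κB consensus was matched in 6 of the 9 promoters over 300 bases (250 before to 50 after the start). Over 15344 protein-coding genes, each with its promoter nearest the canonical start, the share was 12.4%. The matches were GGAAATTCCC in *NFKBIA* from −81 to −72, GGAAAGTCCC and GGAAATCCCC in *TNFAIP3* from −67 to −58 and from −55 to −46, GGGGCTTCCC and GGGACTTTCC in *NFKB2* from −176 to −167 and from −21 to −12, GGGATTTTCC in *IL6* from −73 to −64, GGGAATTTCC in *NFKB1* from −49 to −40, and a pair in *CXCL1* that overlap, from −79 to −70 and from −78 to −69. TATAAA was matched in *NFKBIA*, *CXCL8* and *ICAM1* (9.41% of the 15344) and TGANTCA in *CXCL8* (5.50%). The κB matches did not separate genes with an interval from those without one: *CXCL1* had 2 matches and no interval, and *ICAM1* had intervals in both lists and no match to these letters.

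*NFKBIA*, which encodes the inhibitor IκBα, lies on chromosome 14 from 35401079 to 35404749 on the minus strand. Without UV its promoter carried 2 separate intervals, 1 over the start with a pileup of 26 (summit in the 5′ UTR at position +24) and 1 in intron 1 with a pileup of 28 (+433). After UV a single interval of 1096 bp, from 35403766 to 35404861, spanned both, with a pileup of 54 at +440 and of 29 at +71. The difference was thus at the intron 1 summit, while the summit nearest the start was at a similar pileup in both lists. The ratio of relative heights of the highest summits was 2.02 (95% counting interval 1.26 to 3.32), at percentile 93.3 of the 8974 genes.

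The flanks of *NFKBIA* differed in the other direction, with 10 flanking intervals without UV and 4 after UV. The strongest flanking interval, at −9514 without UV and −9540 after UV with 2 summits each, had a pileup of 25 in both lists. Of the 10 flanking intervals without UV, the other 9 had pileups of 6 to 13, in a list whose median pileup was 14 and lowest 5, and 1 of those 9 had a counterpart after UV. Over all distinct intervals other than promoter intervals, 52.3% of those without UV had a counterpart. The list without UV was also the longer, with 88822 distinct intervals against 77183, and the part of this in the *NFKBIA* flanks was not tested. No annotated gene lies over any of the flanking summits.

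*TNFAIP3* encodes A20, a deubiquitinase that ends signalling to IκB kinase, and lies on chromosome 6 from 137867214 to 137883314. Without UV no interval was listed in the gene or within 20 kb of its starts. After UV, 3 were listed: 1 over the start, from 137867234 to 137867584, with a pileup of 33 at +156 in the 5′ UTR (relative height 34.1, 95% counting interval 23.5 to 47.9), and 2 weaker ones at −14525 and −18636 with pileups of 6 and 8. The promoter summit also lies over WAKMAR2, a non-coding gene that overlaps the start. At a local background within 10% of that of the *TNFAIP3* summit, the lowest pileup listed without UV was 18 (relative height 17.7). A summit of up to about that height could have been present without UV and not be listed, so its absence from the list is not a measured height of 0. This takes the local background without UV to be like that after UV, which was not measured at the site. Local backgrounds can differ between the lists, as at the *IL6* promoter summit (5.36 and 2.73 fragments), so the limit is approximate. The limits given below for other genes rest on the same assumption.

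The other inhibitors and feedback regulators of the pathway were followed in a list of 14 genes, of which 12 had a promoter interval in both lists, 0 in 1 list only and 2 in neither. Over all protein-coding genes the shares were 44.8% in both lists, 9.2% after UV only, 3.2% without UV only and 42.8% in neither. All 12 had a ratio above 1, as had 87.9% of the 8974 genes, and 6 had one of at least 1.5, against 31.2%. Their median was 1.497, against 1.33 over all genes.

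The precursors of the subunits p50 and p52, *NFKB1* and *NFKB2*, had promoter intervals in both lists. *NFKB1* (chromosome 4, 102501330 to 102617302) had 2 intervals in each list and no other within its body of 115973 bp. The upstream one had a pileup of 34 at −201 without UV and 43 at −218 after UV, a ratio of 1.33 (0.827 to 2.15) at percentile 49.0, which is the middle of all genes. Both of these summits lie over an unnamed gene that overlaps the region, so the upstream interval and its ratio cannot be assigned to *NFKB1* alone. The intron 1 interval had a pileup of 12 without UV and 24 after UV. The upstream interval ended at position −13 without UV and at position 3 after UV, so that whether it covered the start differed by a few bases only.

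*NFKB2* (chromosome 10, 102394110 to 102402524) showed the broadest change in extent. Its promoter intervals covered 661 bp without UV and 2072 bp after UV. Over the canonical start, no interval was listed without UV, and after UV one of 697 bp had a pileup of 18 at +31 in the 5′ UTR (relative height 18.6). The lowest pileup listed without UV at such a local background was 11 (relative height 10.8), so a lower summit there would not have been seen.

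The stronger *NFKB2* promoter interval lay over starts inside the gene, at coding exon 13, with a pileup of 25 at +3710 without UV and 51 at +3728 after UV, a ratio of 2.14 (1.302 to 3.60) at percentile 95.01. It spanned 661 bp without UV and 1070 bp after UV. Past the 3′ end, an interval in the neighbouring gene PSD, at +7424 without UV and +7407 after UV, had the highest pileup around any of the 10 genes, 80 without UV and 85 after UV, and so differed little between the lists. The 3 upstream *NFKB2* flanking intervals listed without UV lay in GBF1, and 1 of them had a counterpart.

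**Figure D2:**
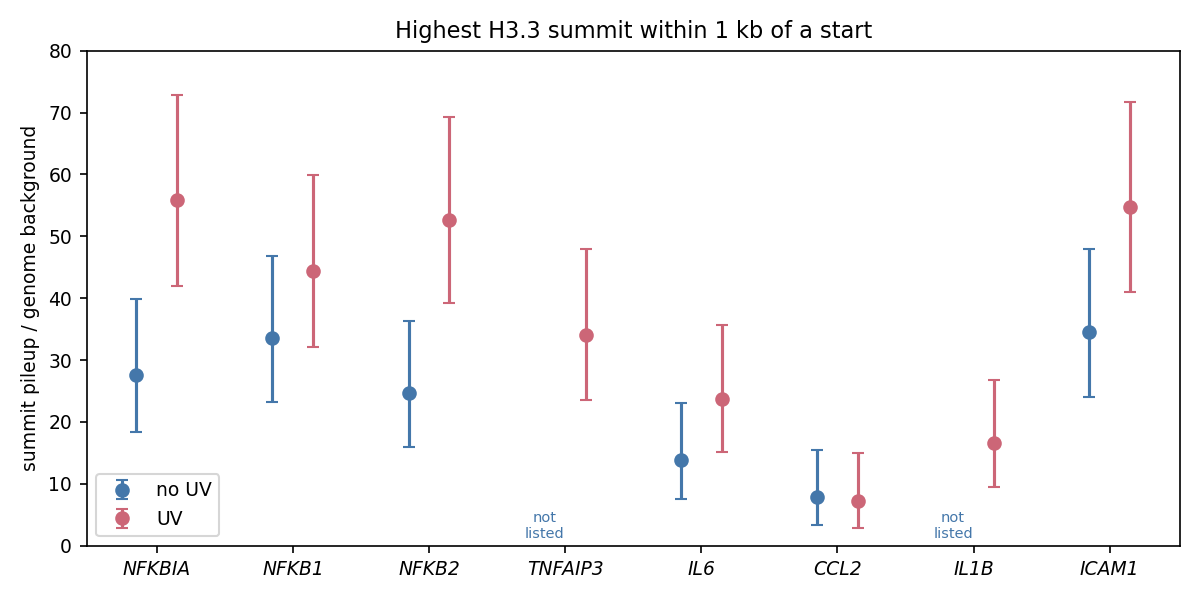
Relative height (summit pileup over the genome background of the list) of the highest summit within 1 kb of a start, for the 8 genes with a promoter interval, without UV (blue) and after UV (red). Bars are exact 95% Poisson intervals for counting error only, and no interval was listed without UV for TNFAIP3 and IL1B.

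*IL6* and *IL1B* encode the inflammatory cytokines interleukin-6 and interleukin-1β. *IL6* (chromosome 7, 22725884 to 22732002) had a promoter interval in both lists over its start, with the summit in intron 1, at a pileup of 14 at +221 without UV and 23 at +187 after UV. The ratio was 1.72 (0.850 to 3.62), at percentile 84.8, and its counting interval included 1. The local background at this summit was 5.36 fragments without UV and 2.73 after UV, and the −log10 q was 1.54 and 11.8. The interval without UV was among the weakest of its list, at percentile 3.72, so the call in both lists rests on a summit near the threshold. That interval ran from position −1 to position 279, so it only just reached over the start.

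In intron 4 of *IL6* a second interval had a pileup of 25 in both lists, at +3845 and +3819, and was higher than the promoter summit in both. Another, at +3037 in the same intron with a pileup of 10, was listed without UV only. IL6-AS1 and STEAP1B overlap the promoter summit, so the interval cannot be assigned to *IL6* alone.

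*IL1B* (chromosome 2, 112829751 to 112836816, minus strand) had no interval over its start in either list. Its promoter interval after UV lay in intron 3, at +2814 and 134 bp from a start of another *IL1B* transcript, with a pileup of 16 (relative height 16.5), above the lowest pileup of 8 listed without UV at a like local background. The 31 bases centred on this summit occur 4167 times in hg38, while the 31 bases at the highest promoter summit after UV of each of the other 7 genes occur once. Reads from such repeated sequence may be placed at the wrong copy, and the part of this in the *IL1B* interval was not tested. The other *IL1B* intervals lay over 18 kb from any of its starts, 2 without UV and 1 after UV, with pileups of 8 to 14.

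The chemokines *CXCL8* and *CXCL1* attract neutrophils and *CCL2* attracts monocytes. *CXCL8* (chromosome 4, 73740519 to 73743716) and *CXCL1* (chromosome 4, 73869393 to 73871308) had no interval in the gene or within 20 kb of a start in either list. This held for 21.5% of protein-coding genes. A list holds only intervals above its threshold, so no upper bound on H3.3 at these genes can be given.

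*CCL2* (chromosome 17, 34255274 to 34257208) was the gene of the 6 with the lowest promoter height in both lists, and the gene whose ratio was below 1. An upstream interval had a pileup of 8 at −417 without UV, reaching over the start, and of 7 at −677 after UV, ending before it. The ratio was 0.918 (0.283 to 2.90), at percentile 7.11, and with 8 and 7 fragments the counting interval spans a wide range on either side of 1. A second promoter interval, in intron 1 at +614 with a pileup of 7, was listed without UV only, where the lowest pileup listed after UV at a like background was 6. The total around *CCL2* was 4 intervals without UV and 2 after UV.

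*ICAM1*, an adhesion molecule bound by leukocyte integrins, lies on chromosome 19 from 10271093 to 10286615. The summit at its start, in coding exon 1, had a pileup of 35 at +45 without UV and 53 at +67 after UV, a ratio of 1.59 (1.02 to 2.51) at percentile 75.8. A weaker interval in intron 1 had a pileup of 13 and 12. After UV an additional upstream interval was listed at −773 with a pileup of 20 (relative height 20.7), where the lowest pileup listed without UV was 15. Both summits at the start lay within the first exon, and the upstream interval was thus the one listed after UV only. LIMASI overlaps all of these promoter summits, so the intervals cannot be assigned to *ICAM1* alone.

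*ICAM1* had the most intervals of the 10 genes, 17 without UV and 20 after UV, and they lie in a stretch dense in genes. The flanking ones lie over MRPL4, LIMASI, ICAM4, ICAM4-AS1, ICAM5 and one unnamed gene, or between genes, and include the highest flanking pileup there, 61 in both lists, at −11539 and −11490. At +15971, over ICAM4 and ICAM4-AS1, an interval with a pileup of 30 was listed after UV only. The 4 no UV intervals in ICAM5 had pileups of 32 to 36, and each had a counterpart. A further interval in ICAM5, at +24405 with a pileup of 31, was listed after UV only. Other flanking intervals were also in 1 list only, with pileups of 10 to 22 after UV and of 11 to 15 without UV.

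Across the 6 genes with a promoter interval in both lists, the relative height was at least 1.5 times higher after UV at 4 (*NFKBIA*, *NFKB2*, *IL6* and *ICAM1*) and at least 1.5 times lower at 0. The *NFKB2* ratio is that of the summit over starts inside the gene. At its canonical start no interval was listed without UV, so no ratio could be taken there. Over the 8974 genes the shares were 31.2% higher and 1.45% lower. The median ratio of the 6 was 1.66, against 1.33. The counting interval excluded 1 at *NFKBIA*, *NFKB2* and *ICAM1*, but it included the general ratio of 1.33 at all 6 genes, so that none stood apart from the general shift by more than counting error.

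**Figure D3:**
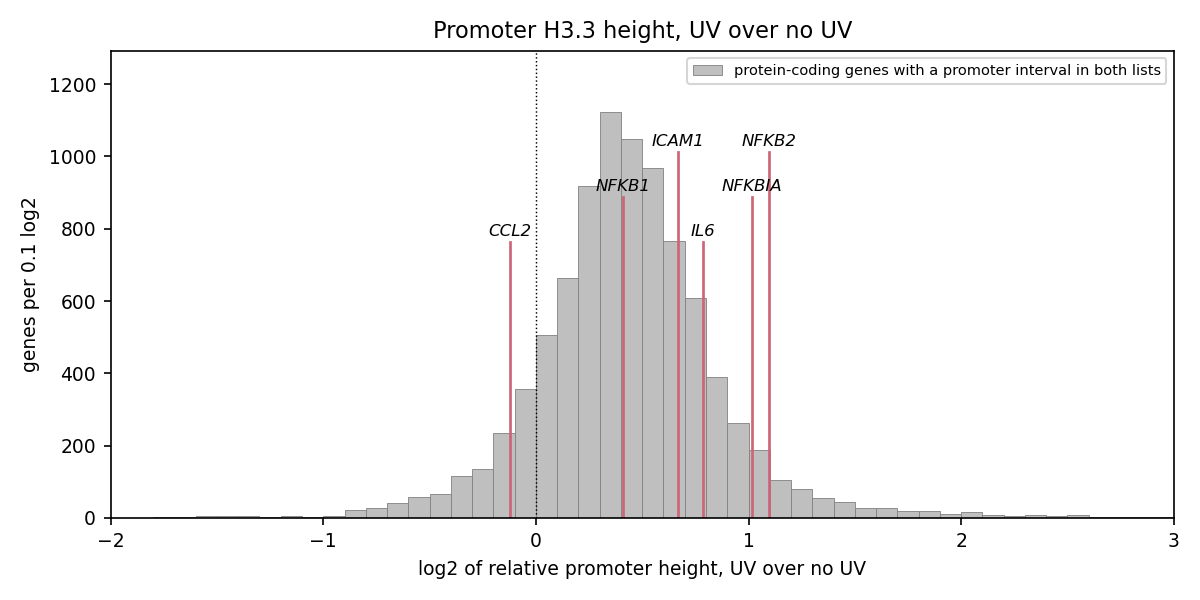
Number of protein-coding genes (y axis) by log2 ratio of relative promoter height, UV over no UV (x axis, bins of 0.1), for the 8974 genes with a promoter interval in both lists, with the 6 genes marked by red lines. NFKBIA (2.02) and NFKB2 (2.14) lie in the upper tail, NFKB1 (1.33) in the middle and CCL2 (0.918) below 1. The NFKB2 ratio is that of a summit over starts inside the gene, not at its canonical start.

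An interval over the start of the canonical transcript itself was a stricter criterion, added after the data were seen. *NFKBIA*, *IL6* and *ICAM1* had one in both lists (16.3% of protein-coding genes), *NFKB1*, *NFKB2* and *TNFAIP3* after UV only (11.9%), *CCL2* without UV only (1.27%) and *IL1B*, *CXCL8* and *CXCL1* in neither (70.5%). The calls at *IL6* and *NFKB1* turn on a few bases. Without UV the *IL6* interval began at position −1, and the upstream *NFKB1* interval ended at position −13. When only intervals at a −log10 q of 5 or more were kept in each list, 3 genes kept a promoter interval without UV and 4 had one after UV only, since the no UV promoter intervals of *NFKB2*, *IL6* and *CCL2* were below it, as was the *CCL2* interval after UV.

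Intervals that overlapped one of the other list by at least 1 bp were counted by class. Of the promoter intervals, 9 of 10 without UV overlapped an interval after UV, and 8 of 13 after UV overlapped one without UV. Over the promoter intervals of all protein-coding genes these shares were 76.5% and 67.7%. Of the flanking intervals, 13 of 31 without UV and 13 of 24 after UV had such a counterpart, and over all intervals other than promoter intervals 52.3% and 64.9% had one. Over all classes the shares were 55.6% (95% interval 40.0 to 70.4%) of 45 and 59.5% (43.3 to 74.4%) of 42, against 57.3% and 65.6% of all distinct intervals, both of which lie within the counting intervals. When both lists were reduced to the same number of rows, the 45 and 42 intervals became 35 and 42, so the order of the totals turned. Promoter intervals covered 4.36 kb without UV and 7.12 kb after UV, with a median −log10 q of 3.82 and 8.36. Promoter heights were larger after UV in general, and −log10 q depends on depth. The same totals over all promoter intervals are not given, so a change particular to the 10 genes cannot be read from these values. Flanking intervals covered 13.9 kb and 11.3 kb. Intervals of 1 gene are not independent of each other, and *ICAM1* and *NFKBIA* hold 29 of the 45 and 25 of the 42.

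The promoters also differed in CpG content, the frequency of CG relative to that from the base composition. Over 15344 protein-coding genes with a RefSeq promoter, those with a ratio of at least 0.6 had a promoter interval for 61.6% without UV and 69.6% after UV, and those below 0.6 for 22.8% and 24.8%. Of the 9 genes, *NFKBIA* (0.776), *NFKB1* (0.918), *NFKB2* (0.643), *TNFAIP3* (0.869), *CXCL1* (0.674) and *ICAM1* (0.767) were in the first class, and *CXCL8* (0.351), *IL6* (0.405) and *IL1B* (0.155) in the second. The 2 genes without any interval thus fell on either side. *IL6* had an interval over its start at a CpG ratio where most genes had none, and *CXCL1* had none where most had one. The *IL6* summits, at +221 without UV and +187 after UV, lay outside the bases over which the CpG ratio was taken. The 300 bases around them held 65.7% and 65% GC, against 49.3% in the *IL6* promoter window. The median GC content of the 300 bases around the summits of the promoter intervals was 68.7% without UV and 66.3% after UV, against 51% and 52.7% over all distinct intervals. Most of the distinct intervals are not promoter intervals. Over the 15344 RefSeq promoters, in the 300 bases around the start, the median GC content was 63.7%, so a high GC content is general to promoters.

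**Figure D4:**
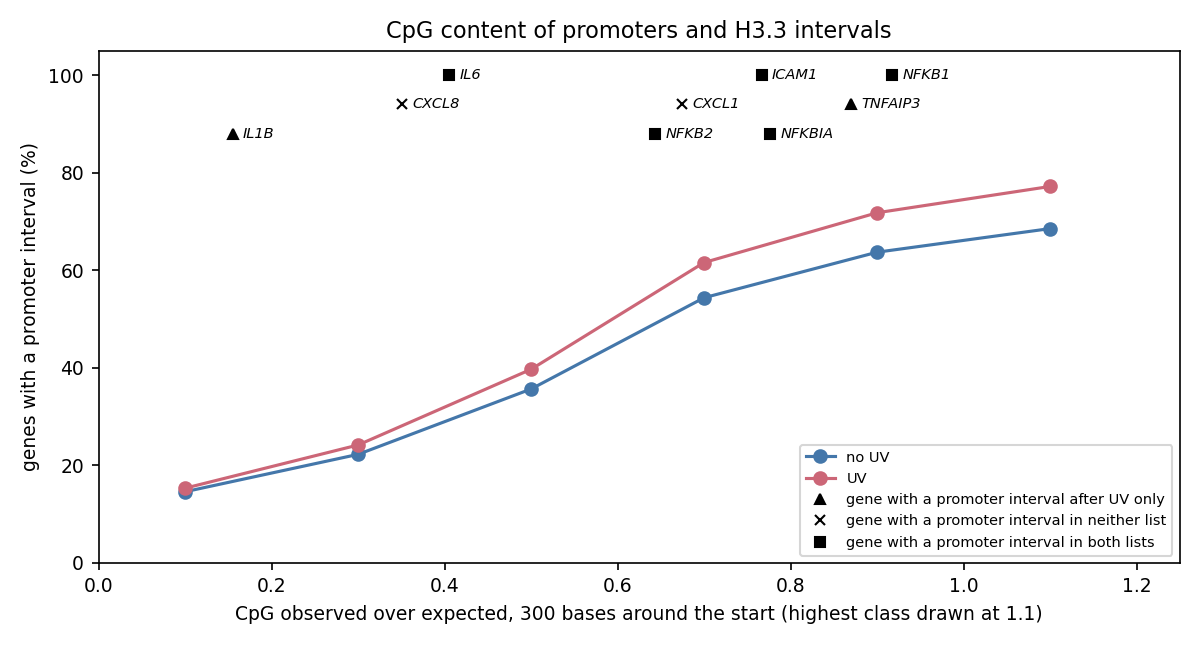
Share of protein-coding genes with a promoter interval (y axis, %) by CpG observed over expected in 300 bases around the start (x axis, 6 classes), without UV (blue) and after UV (red). The curves run from 14.6 and 15.3% in the lowest class to 68.5 and 77.2% in the highest, and black symbols above them place 9 of the genes on the x axis, with no meaning in height.

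The wider pathway was described with a list of 68 further genes. In all, 34 had a promoter interval in both lists, 8 after UV only, 2 without UV only and 24 in neither, so that 36 had one without UV and 42 after UV. The shares over all protein-coding genes, in the same order, were 44.8, 9.2, 3.2 and 42.8%. The median ratio of the 34 was 1.48, with 13 of 34 at 1.5 or more and 0 at the same factor lower, against 31.2% and 1.45% over all genes.

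Among 7 receptors, TNFRSF1B, a receptor of tumour necrosis factor, had a promoter interval after UV only (pileup 27) and TLR4, the receptor of bacterial lipopolysaccharide, without UV only (pileup 8). The 3 receptors with a promoter interval in both lists had a median ratio of 0.929, and 1 of them had a ratio above 1. Of 12 adapters and kinases, 8 had one in both lists and 3 after UV only, namely CHUK, the α subunit of IκB kinase (pileup 43), MAP3K7, the kinase TAK1 that activates it (43), and the ubiquitin ligase TRAF6 (26). The 8 in both lists had a median ratio of 1.395, all above 1 and 2 of them at 1.5 or more. No adapter or kinase had one without UV only. Of 3 further REL subunits, 2 had one in both lists, with a median ratio of 1.65, and 1 in neither.

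Of 32 cytokines, chemokines and other targets, 9 had a promoter interval in both lists, 4 after UV only, 1 without UV only and 18 in neither. The 9 had a median ratio of 1.49, with 8 above 1 and 3 at 1.5 or more. The 4 were the cytokine LIF (pileup 39), PTGS2, the inducible cyclooxygenase (36), and the colony-stimulating factors CSF1 (25) and CSF2 (21), and the 1 was the adhesion molecule VCAM1 (pileup 9). The intervals listed without UV only, at TLR4 and VCAM1, were thus of lower pileup than any of the 8 listed after UV only. Inhibitors and feedback regulators had a promoter interval in at least 1 list for 12 of 14, and targets for 14 of 32, against 57.2% of all protein-coding genes.

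**Figure D5:**
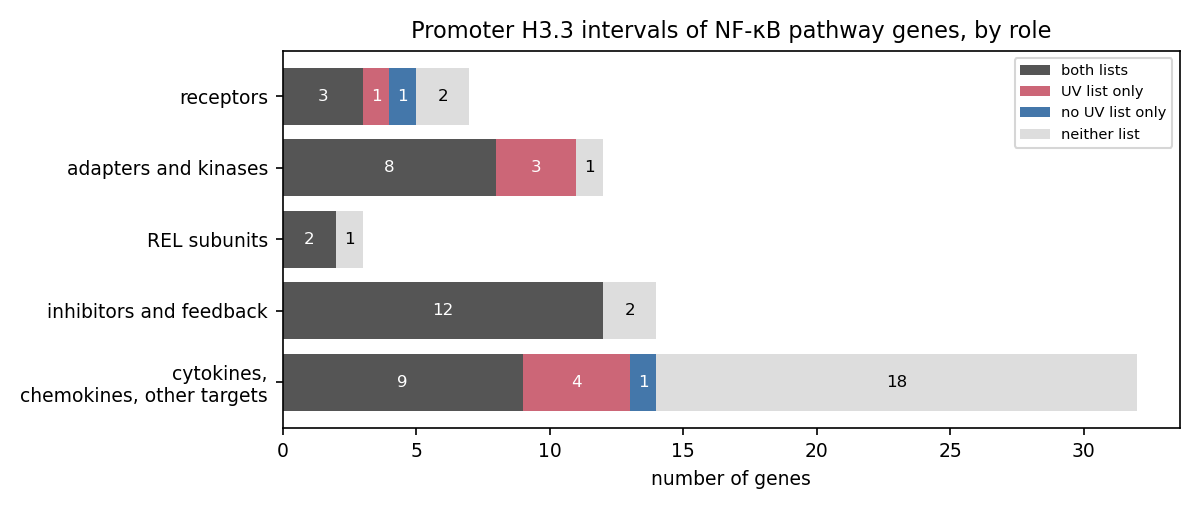
Number of the 68 pathway genes (x axis) with a promoter interval in both lists, after UV only, without UV only or in neither, by role. Inhibitors and feedback regulators have 12 of 14 in both lists and adapters and kinases 8 of 12, while 18 of 32 targets are in neither.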

How the data were processed

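H3.3 ChIP-seq of MRC5_VA cells (MRC5 in the labels) was analysed in 1 library without UV and 1 after UV, each from the pooled DNA of 3 replicates; input libraries were not analysed here. The authors aligned trimmed reads to hg38 (BWA), discarded duplicates and called peaks with MACS (BWA 0.7.12 and MACS 1.4.2 per the submitters' processing notes). The control and threshold for H3.3 peaks are not given in the sources used here, and the lists have the layout of MACS2, another version than the one noted. The authors deposited, per summit, a score, the −log10 of p and of q, and a fold enrichment, which is a ratio to local background. These depend on depth, so a whole-number pileup and local background were solved instead (tested on simulated data), assuming that fold is (pileup + 1)/(local background + 1) and p the Poisson probability of a higher pileup, and the pileup was divided by the lowest background of the list.

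The 10 genes, the pathway and marker lists and the alternatives were chosen with earlier results of these data known. All 10 genes are named; pathway genes are named where their promoter interval was in 1 list only. Promoters shown were those of genes with a promoter interval in 1 list only or over the start in both lists, plus NFKB2 and CXCL8, chosen after their values were seen. Counting intervals are exact Poisson (pileups) and exact binomial, Clopper-Pearson (shares, ratios) at 95%. No paired analysis or test was possible. GENCODE 44 gave genes and TSSs. Scripts ran under Python 3.11.15 with scipy 1.17.1, pandas 2.3.3, numpy 2.4.6 and matplotlib 3.10.9.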

Additional observations from a re-analysis of the deposited data

How the results depend on the processing

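Of 56 values under alternatives (promoter windows of 500 bp and 2 kb, distance from the summit, basic protein-coding TSSs, flanks of 10 and 50 kb, stricter −log10 q, equal numbers of rows, overlap of 50% and each summit counted), 47 lay close to the reported value (counts within 1.5 times) and 9 moved. Counts called close still changed. With equal numbers of rows, or a −log10 q of at least 3, members with a promoter interval after UV only went from 2 to 3. Under both alternatives those with one without UV went from 6 to 5. With TSSs of basic protein-coding transcripts only, members with a promoter interval went from 6 to 5 without UV and from 8 to 7 after UV. The direction of 45 intervals without UV against 42 after UV was not stable: it turned with equal numbers of rows (35 and 42), when −log10 q had to reach 3 (33 and 35) or 5 (17 and 25), and in a flank of 10 kb (29 and 30). With a −log10 q of at least 5 there were 17 distinct intervals without UV and 25 after UV in place of 45 and 42, 3 members with a promoter interval without UV in place of 6, 4 with one after UV only in place of 2, and 82.4% of intervals without UV had a counterpart in place of 55.6%; fewer intervals are kept by construction. With a flank of 50 kb there were 95 and 85 intervals, and with 10 kb 29 without UV, where more or less sequence is searched by construction. With an interval required over the canonical start, chosen after the data were seen, 1 gene (*CCL2*) had one without UV only in place of 0. No paired analysis was possible because each condition has 1 library, and for the same reason no replicate could be left out. Depth limits the comparison at low pileups: with fewer than 10 fragments, as at *CCL2*, counting error alone spans a factor of several, and a summit below the listing limit cannot be told from none.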
